A study of Homo sapiens with 4 samples.

Results

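The aryl hydrocarbon receptor (AHR) axis was followed here through 8 genes, namely CYP1A1, CYP1A2, CYP1B1, AHR, ARNT, AHRR, NQO1 and TIPARP, out of the 58365 gene rows of the RNA-seq table. Rows were taken by gene symbol, and each of the 8 symbols had 1 row. The set was chosen by the difference of CYP1A1 between these same SB and DMSO libraries, which was among the largest increases, so its values are given as a description, and nothing is read from its place among the genes called. The other 7 genes were added for their place in the pathway, with results of this contrast already known, and their p-values are likewise descriptive.

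RNA was sequenced from the human embryonic stem cell (hESC) line H1, a long-established line, at day 8 of stepwise hematopoietic differentiation. All libraries shared the first steps, with activinA at 40 ng/ml and BMP4 at 50 ng/ml for 2 days, followed by VEGF at 40 ng/ml and bFGF at 50 ng/ml. For the last 3 days VEGF and bFGF were continued either with SB431542, an inhibitor of TGFβ type I receptor kinases (SB, 2 libraries), or without it (DMSO, 2 libraries). The study describes collecting CD31+ cells, a step absent from the sample labels, and PECAM1, which encodes CD31, lay between 153 and 197 FPKM in all 4 libraries. FPKM are fragment counts scaled to transcript length and to the total of mapped fragments, so levels can be compared between genes. Both groups came from 1 cell line. Neither the labels nor the description of the RNA-seq says that these 2 replicates per group were separate cultures. The statistics section of the study speaks of 3 independent experiments per analysis, while each group here has 2 libraries. The p-values below thus measure only the spread between these libraries, which may be technical.

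AHR is a ligand-activated transcription factor that rests in the cytoplasm in a complex with HSP90. On binding planar aromatic compounds or tryptophan derivatives it moves to the nucleus, pairs with ARNT and binds short DNA elements with the core GCGTG. Its classical targets are the CYP1 family of cytochrome P450 enzymes, which oxidize aromatic compounds, and its own antagonists AHRR and TIPARP. In adults the axis is best known for the handling of foreign compounds in liver, gut and lung, and it has also been studied in blood progenitors.

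The promoter of CYP1A1 is shown first, since CYP1A1 differed most between the groups while its neighbor CYP1A2 was not detected. Promoter windows of 250 bases before to 50 bases after the RefSeq start (GRCh38.p14) were found for 7 of the 8 genes, in 10 windows, CYP1B1 being the gene without one. In the CYP1A1 window the AHR-ARNT core GCGTG occurred once, beginning 57 bases before the start, and the related ARNT core ACGTG, used by hypoxia-inducible factors, occurred once on the opposite strand, beginning 48 bases before the start. Both lie in the run below, chr15:74725564-74725593 on the minus strand, which falls inside the gene interval of the table because that interval begins farther upstream than the RefSeq start, with the matches in capitals; CACGT is ACGTG read on the other strand.
CYP1A1, 65 to 36 bases before the start: ggaaggagGCGTGgccaCACGTacaagccc
The farther part of the window, chr15:74725611-74725778, lies before that interval and held 0 matches to either core.
CYP1A1, 250 to 83 bases before the start: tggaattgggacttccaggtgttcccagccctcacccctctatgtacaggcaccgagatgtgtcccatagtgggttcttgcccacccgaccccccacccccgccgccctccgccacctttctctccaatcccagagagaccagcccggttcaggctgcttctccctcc
CYP1A2, chr15:74748595-74748843 on the plus strand, is shown for comparison and likewise held 0 matches.
CYP1A2, 250 to 2 bases before the start: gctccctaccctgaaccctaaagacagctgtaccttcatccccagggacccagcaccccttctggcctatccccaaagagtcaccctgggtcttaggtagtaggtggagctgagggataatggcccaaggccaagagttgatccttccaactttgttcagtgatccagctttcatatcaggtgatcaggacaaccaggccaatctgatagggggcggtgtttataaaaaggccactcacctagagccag

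The same core was present in windows of AHRR, TIPARP and NQO1, shown to set genes with small and larger differences side by side. Below are stretches of 29 bases around 1 site in each of 3 windows, not the whole windows. They come from the first AHRR window (chr5:321671-321699) and the first TIPARP window (chr3:156674370-156674398, the site farther from the start), both on the plus strand. The third comes from the NQO1 window (chr16:69726542-69726570, minus strand), where the site begins right after the start. Capitals mark the longer form TNGCGTG, which contains the core, in AHRR and NQO1 (read on the other strand in NQO1), and CACGC, the core on the other strand, in TIPARP.
AHRR: gggcgggcggcTCGCGTGccggggtgggg
NQO1: cgtgcactacaCACGCGActcccacaagg
TIPARP: cgcgagaaaggaCACGCcccctcgcggga
Of all 35116 promoter windows of the same length, 36.5% held GCGTG on either strand, 5.51% held TNGCGTG, 21.4% held ACGTG and 13.3% held TGACNNNGC, an element bound by NRF2. TGACNNNGC was found once among the 10 windows, in ARNT. The second AHRR window held GCGTG 2 times, the other 2 TIPARP windows held 0 matches, and the AHR window held GCGTG once and ACGTG on both strands of a single CACGTG. These matches describe letters in short windows and say nothing of binding, and regulatory elements farther upstream were not read.

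CYP1A1, which encodes a P450 enzyme that oxidizes polycyclic aromatic compounds and is kept low in most cells without an AHR ligand, had 3.41 and 4.15 FPKM with DMSO and 59.9 and 62.9 FPKM with SB431542. Both SB libraries stood far above both DMSO libraries, and the replicates of each group lay close together (3.78 ± 0.519 and 61.4 ± 2.11 FPKM, SD, n = 2 each). The ratio of the means was 16.3, and it was 17.6 within replicate number 1 and 15.2 within number 2. On the log2(FPKM + 1) scale, which understates changes of low genes, the difference was 3.71 (SE 0.17), the third largest increase among the 14909 genes tested, which are those averaging 1 FPKM or more in either group. Relative to these genes, CYP1A1 moved from percentiles 26.2 and 29.1 of expression in the DMSO libraries to 88.5 and 90.4 in the SB libraries. The gene (ENSG00000140465.13, chromosome 15, 74719542 to 74725610, minus strand, GRCh38) has 10 annotated transcripts, which the deposited values do not tell apart.

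CYP1A2, a closely related P450 that metabolizes caffeine and is largely confined to hepatocytes in adults, was listed at 0 in all 4 libraries. It lies head to head with CYP1A1 on the plus strand (ENSG00000140505.6, chromosome 15, 74748844 to 74756202), its start 23.2 kb from that of CYP1A1. A 0 in this table can be a failed estimate, and no fold was computed for it. CYP1B1, the member of the family most typical of tissues outside the liver, was listed at 1.24 and 0.806 FPKM with DMSO and at 0.934 and 0.356 FPKM with SB431542. Its groups overlapped, and the log2 difference of -0.31 (95% interval -1.07 to 0.44) had the opposite sign to that of CYP1A1. The row of CYP1B1 overlaps CYP1B1-AS1, a non-coding RNA at no more than 0.208 FPKM, and over 170 bases RMDN2, at 1.19 to 2.26 FPKM, and strand use in counting is not stated.

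**Figure D1:**
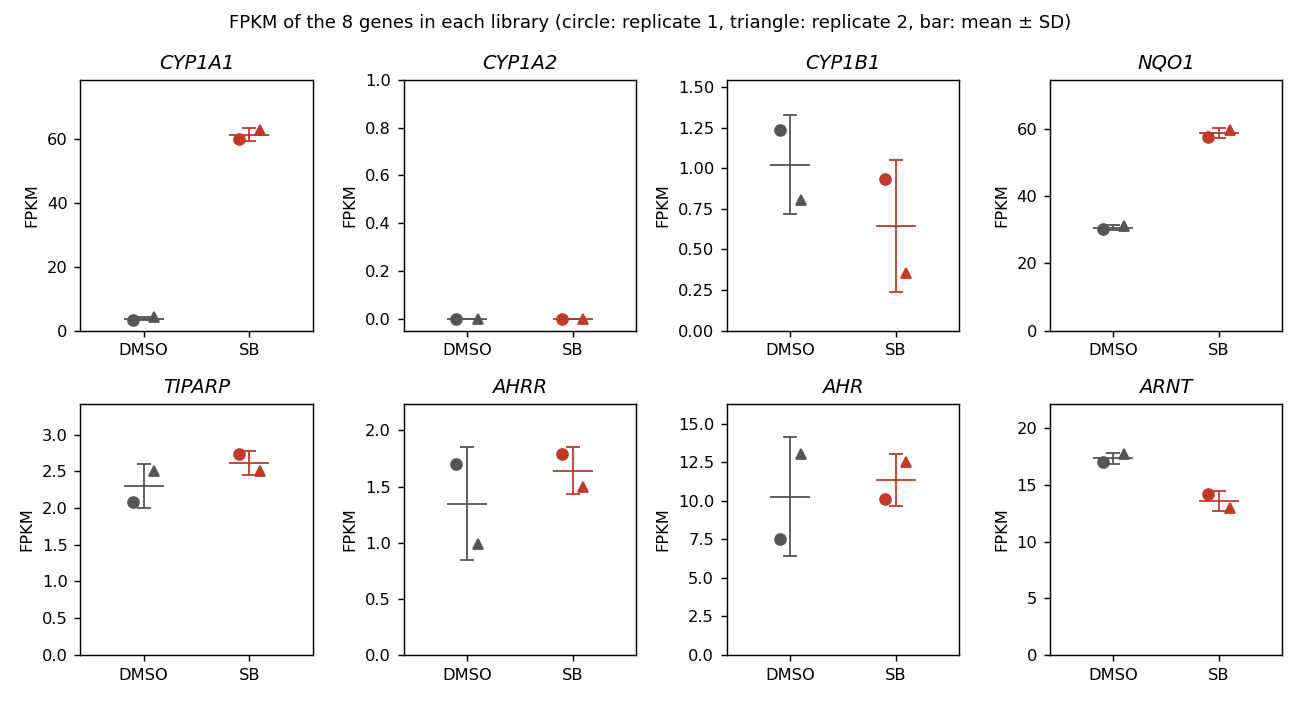
FPKM (vertical axes, each panel on its own scale) of the 8 genes in the DMSO (grey) and SB (red) libraries, with circles for replicate 1, triangles for replicate 2 and bars for the mean ± SD of 2 libraries. CYP1A1 and NQO1 have both SB libraries above both DMSO libraries, ARNT has them below, CYP1A2 is at 0 throughout, and the groups of the other genes overlap.

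NQO1, a quinone reductase induced both by AHR and by the oxidative stress factor NRF2, had 30.2 and 31.1 FPKM with DMSO and 57.6 and 59.7 FPKM with SB431542. The groups were separated by a gap much wider than the spread within either of them, with a ratio of means of 1.92. The log2 difference was 0.92 (SE 0.15, 95% interval 0.52 to 1.31), and it was 0.91 and 0.92 within replicate numbers 1 and 2. NQO1 did not pass the adjustment over all genes (limma adjusted p 0.167), while 1.88% of the tested genes had a difference at least as large in the same direction. In the SB libraries CYP1A1 and NQO1 were the most abundant of the 8 genes, at nearly the same level, whereas with DMSO the NQO1 level was far above that of CYP1A1. NQO1 overlaps the antisense RNA AC092115.2, at no more than 0.613 FPKM, over 710 bases.

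The feedback antagonists of the receptor had small differences. AHRR, a repressor that competes with AHR for ARNT, was listed at 1.70 and 0.993 FPKM with DMSO and at 1.79 and 1.49 FPKM with SB431542. TIPARP, an ADP-ribosyltransferase that modifies AHR and promotes its loss, was listed at 2.09 and 2.51 FPKM with DMSO and at 2.73 and 2.50 FPKM with SB431542. In both genes the groups overlapped, and the log2 differences were 0.18 for AHRR (95% interval -0.46 to 0.83) and 0.14 for TIPARP (95% interval -0.37 to 0.64). The intervals allow changes of either sign, but their upper ends lie under the value of CYP1A1. The direction for AHRR turned without DMSO replicate 2, to -0.036. AHRR shares 49681 bases of its interval with PDCD6, which ran between 42.7 and 63.2 FPKM, so its low values are uncertain. TIPARP overlaps its antisense RNA TIPARP-AS1, at 0.731 to 3.59 FPKM, over 1144 bases, so its values are uncertain too.

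The receptor and its partner were both present. AHR was listed at 7.54 and 13.0 FPKM with DMSO and at 10.1 and 12.5 FPKM with SB431542, so that both libraries of replicate number 1 were lower than both of number 2 and the groups overlapped. Its log2 difference was 0.17 (95% interval -0.59 to 0.93), with 0.39 within number 1 and -0.052 within number 2, and it turned to -0.19 without DMSO replicate 1. AHR shares 46858 bases of its interval with AC019117.3, a protein-coding row on the same strand listed at no more than 2.46e-27 FPKM. It also overlaps the antisense RNA AC003075.1, at 0.160 to 0.528 FPKM, over 736 bases. Fragments from shared bases could be assigned to either row, so the values of AHR are uncertain too. ARNT, the shared partner of AHR and of the hypoxia-inducible factors, was listed at 17.0 and 17.7 FPKM with DMSO and at 14.2 and 12.9 FPKM with SB431542. Both SB libraries were below both DMSO libraries, with a log2 difference of -0.33 (95% interval -0.75 to 0.085, limma adjusted p 0.624).

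In order of level, the DMSO libraries placed NQO1 first, followed by ARNT, AHR, CYP1A1, TIPARP, AHRR and CYP1B1, and of these neighbors AHRR and CYP1B1 overlapped while the others did not. In the SB libraries CYP1A1 came first and NQO1 next, with the lower CYP1A1 library (59.9 FPKM) just above the higher NQO1 library (59.7 FPKM), and the rest kept their order without overlap between neighbors. CYP1A1 thus changed its place in the order, from the middle to the top.

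Of the 8 genes, 7 were tested and CYP1A2 was not. With limma, 1 of the 7 passed an adjusted p of 0.05, CYP1A1 itself, and 0 of the other 6 did (adjusted p between 0.167 and 0.940), with 1 of these 6, NQO1, at an unadjusted p under 0.05. Over all genes 0.134% passed, 0.0268% higher and 0.107% lower, and 9.96% had an unadjusted p under 0.05, 4.8% higher and 5.16% lower. Nothing is read from the single call, since the set was chosen for it. CYP1A1 did not pass when any 1 of the 4 libraries was left out or when low genes were not filtered, although its difference stayed between 3.60 and 3.99 in every setting tried. The groups did not overlap in 3 of the 7 genes, 2 higher and 1 lower, against 37.5% of all genes, 21.5% higher and 16% lower. The median log2 difference was 0.17 over the 7 genes and 0.04 over all tested genes.

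**Figure D2:**
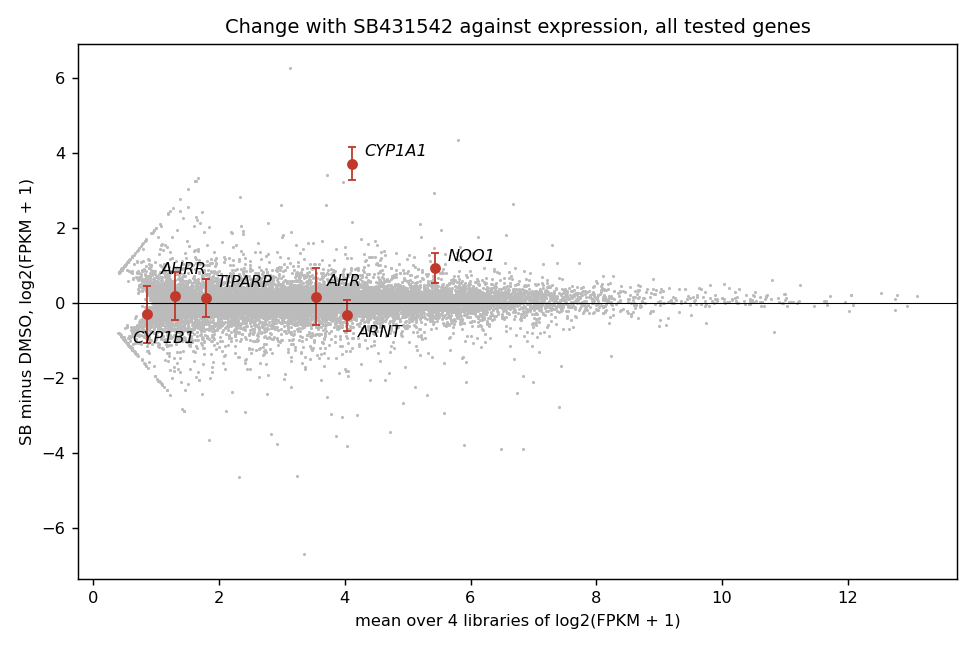
Difference between SB and DMSO libraries on the log2(FPKM + 1) scale (vertical axis) against the mean of log2(FPKM + 1) over 4 libraries (horizontal axis) for the 14909 tested genes (grey), with the 7 tested genes of the axis in red and their 95% intervals as bars. CYP1A1 lies at 3.71 and NQO1 at 0.92, while the intervals of the other genes include 0.

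Markers of other cell types moved between the same libraries. Summed over 14 endoderm and liver markers, the level was 293 and 334 FPKM with DMSO and 31.3 and 34.7 FPKM with SB431542. All 11 tested were lower in both replicate numbers (30.6% of all genes). Of these, 4 fell past the adjustment (0.107% of all genes), namely APOA1, APOA2, TTR and AFP. These 4 encode proteins secreted by liver and yolk sac cells. ALB never exceeded 0.481 FPKM, and none of the 14 markers was at 0 throughout. APOA2, the most abundant, had 120 and 141 FPKM with DMSO and 14.5 and 18.2 FPKM with SB431542, the opposite direction to CYP1A1. The 10 hematopoietic markers summed to 372 and 343 FPKM with DMSO and to 617 and 567 FPKM with SB431542. All 9 tested were higher in both numbers (40.9% of all genes) with 0 past the adjustment, and PTPRC, which encodes CD45, did not exceed 0.202 FPKM. ITGA2B of the megakaryocyte lineage, the most abundant, had 153 and 127 FPKM with DMSO and 243 and 194 FPKM with SB431542. The 10 endothelial markers, all tested and 0 past the adjustment, summed to 1809 and 1641 FPKM with DMSO and to 1618 and 1502 FPKM with SB431542. Their median log2 difference was -0.09, and the groups overlapped in 7 of them. Without overlap, 2 were lower and 1 higher (16% and 21.5% of all genes). KDR, the most abundant by mean, had 399 and 440 FPKM with DMSO and 413 and 434 FPKM with SB431542. The lowest difference, and the 1 at an unadjusted p under 0.05, was that of ENG, a coreceptor for TGFβ ligands. ENG had 64.2 and 47.9 FPKM with DMSO and 17.8 and 14.7 FPKM with SB431542 (log2 difference -1.72, limma adjusted p 0.0986), so the lower sum includes its fall. Mesenchymal and cardiac markers summed to 299 and 228 FPKM with DMSO and to 92.0 and 80.6 FPKM with SB431542. All 8 tested were lower in both numbers, and 1 of them, the cardiac actin ACTC1, fell past the adjustment. Epithelial markers summed to 255 and 251 against 116 and 124 FPKM, with all 6 tested lower in both numbers and 0 past the adjustment. Pluripotency markers summed to 70.6 and 90.6 against 93.8 and 115 FPKM (0 of 4 past the adjustment). The largest part of that sum was LIN28A, at 42.6 and 51.0 against 65.2 and 76.0 FPKM. The 4 tested did not move together, with log2 differences of 0.59 for LIN28A, 0.72 for POU5F1, -0.01 for DPPA4 and -0.70 for TDGF1. NANOG stood at no more than 0.0261 FPKM. The part of these shifts in the CYP1A1 values was not tested, and in bulk RNA more cells of a type cannot be told apart from more RNA per cell.

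To see how far the difference in CYP1A1 extended, 10 lists of related genes were examined, with 180 genes in all, of which 104 were tested. With limma 0 of the 104 passed the adjusted p of 0.05. At an unadjusted p under 0.05, 9 were higher and 4 lower, 12.5% of those tested against 9.96% of all genes. The median log2 difference over the 104 genes was 0.09.

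Among 20 other AHR target genes, 9 were tested, 2 were higher at an unadjusted p under 0.05 and the median was 0.17. ABCG2, an efflux pump also used to mark stem cells, was listed at 4.68 and 5.68 FPKM with DMSO and at 16.1 and 15.3 FPKM with SB431542. Its SB libraries were clearly apart from its DMSO libraries, with a log2 difference of 1.44 (SE 0.18, limma adjusted p 0.0969). IL1B, an inflammatory cytokine, had a difference of 0.72 (limma adjusted p 0.274), and GSTA2, a glutathione transferase, one of -0.31 (limma adjusted p 0.769). ALDH3A1, an aldehyde dehydrogenase long used as a readout of AHR beside CYP1A1, stayed between 0.218 and 0.395 FPKM, below the level for testing. UGT1A1 and UGT1A6, glucuronosyltransferases of the same battery, did not exceed 0.0194 FPKM. The interval of UGT1A1 lies inside that of UGT1A6, so fragments may be assigned to other rows and these values are uncertain.

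The chaperone complex that holds AHR in the cytoplasm was abundant in both groups and had a median log2 difference of 0.18 over 6 tested genes, with 0 at an unadjusted p under 0.05. HSP90AA1 (0.27), SRC (0.26) and HSP90AB1 (0.14) had limma adjusted p between 0.760 and 0.863. Coregulators of AHR and ARNT had a median of 0.06 over 12 tested genes, with 0 at an unadjusted p under 0.05. Among them RELB, an NF-κB subunit that can pair with AHR, stood at 4.39 and 2.88 FPKM with DMSO and at 2.15 and 1.84 FPKM with SB431542 (log2 difference -0.61, limma adjusted p 0.510), next to KLF6 (0.31) and NCOR1 (0.26).

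The list for the supply of tryptophan-derived AHR ligands had a median of -0.12 over 8 tested genes. Besides enzymes and transporters that supply ligands, it holds enzymes that carry kynurenine onward, so its median is not a measure of supply alone. IDO1 and TDO2, the enzymes that open the tryptophan ring, did not exceed 0.267 FPKM. IL4I1, of the same list, was tested and stood at 2.39 and 1.03 FPKM with DMSO and at 1.38 and 1.42 FPKM with SB431542. Its groups overlapped (log2 difference -0.13, limma adjusted p 0.964). HAAO, an enzyme further down the kynurenine route, was listed at 3.31 and 2.28 FPKM with DMSO and at 1.19 and 0.671 FPKM with SB431542, so that both SB libraries were lower (log2 difference -0.97, limma adjusted p 0.331). SLC3A2 (0.25) and AFMID (-0.22), an amino acid transporter subunit and a formamidase, differed little.

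**Figure D3:**
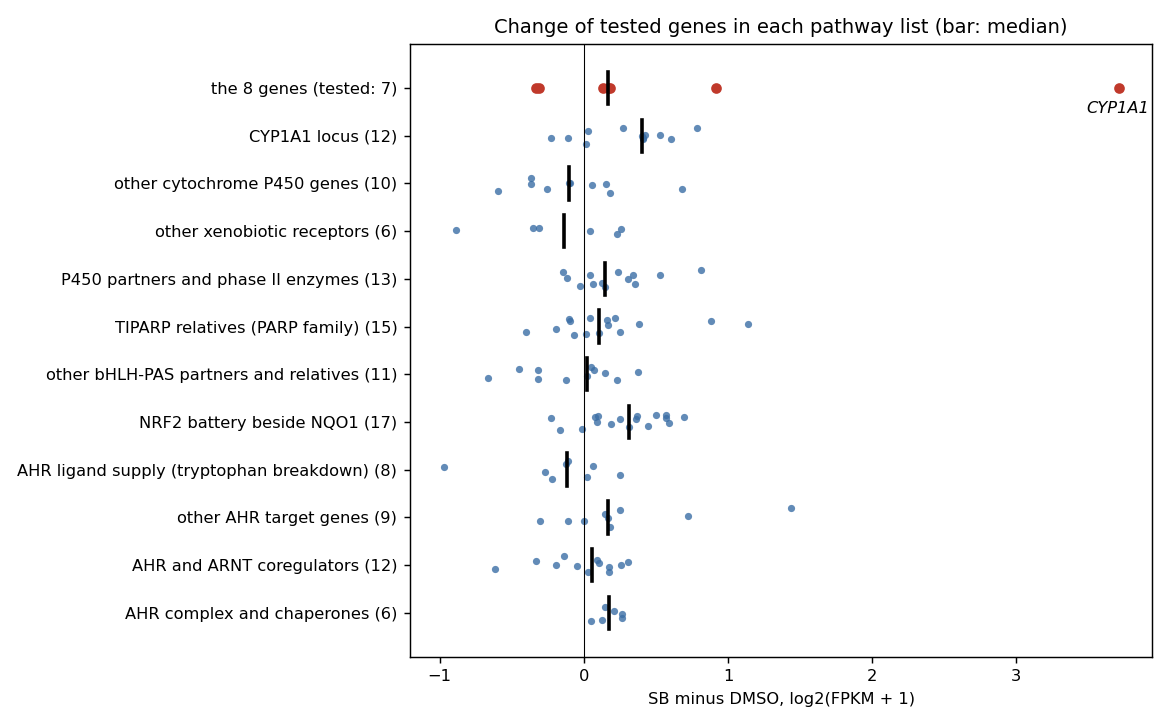
Difference between SB and DMSO libraries on the log2(FPKM + 1) scale (horizontal axis) for the tested genes of each pathway list (blue points, with the number tested in brackets) and for the 7 tested genes of the axis (red), with black bars for medians. The list medians lie between -0.14 and 0.41, and the highest list gene is ABCG2 at 1.44, against CYP1A1 at 3.71.

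Genes of the NRF2 battery, which share NQO1 with the AHR axis, were listed with the genes of NRF2 and of its repressor KEAP1. The median of this list was 0.32 over 17 tested genes. Of these, 13 were higher in both replicate numbers (40.9% of all genes), KEAP1 (0.45) among them, though 0 passed the adjustment. HMOX1, which encodes the heme-degrading enzyme heme oxygenase, was listed at 14.9 and 13.5 FPKM with DMSO and at 22.9 and 24.1 FPKM with SB431542 (log2 difference 0.69, limma adjusted p 0.270). TALDO1 (0.59, limma adjusted p 0.311) and PGD (0.37, limma adjusted p 0.550), both of the pentose phosphate pathway, had smaller differences. GCLC, which makes the first step of glutathione synthesis and is a common readout of NRF2, stood at 13.4 and 14.4 FPKM with DMSO and at 12.4 and 11.0 FPKM with SB431542, lower in both SB libraries. NRF2 itself (NFE2L2) was at 8.63 and 14.5 FPKM with DMSO and at 12.7 and 14.3 FPKM with SB431542, with overlapping groups.

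The other P450 genes were then examined, taken by symbols made of CYP, a family number, subfamily letters and a member number. Any P450 gene named otherwise was left out. Among 53 other P450 genes, 10 were tested, with a median of -0.10 and 0 past the adjustment. CYP27A1, a sterol hydroxylase, stood at 12.4 and 11.2 FPKM with DMSO and at 7.19 and 7.76 FPKM with SB431542 (log2 difference -0.59, limma adjusted p 0.348), and CYP51A1 of cholesterol synthesis (0.68, limma adjusted p 0.470) and CYP27C1 (-0.37, limma adjusted p 0.683) did not pass either. CYP1A1 made up 4.32% and 5.28% of the summed FPKM of the 56 genes with such symbols in the DMSO libraries. In the SB libraries it made up 42.9% and 43.4%. Among these 56 it had rank 6 in both DMSO libraries and rank 1 in both SB libraries. The partners and phase II enzymes that act beside P450 had a median of 0.15 over 13 tested genes. Of these SULT1A1, a sulfotransferase, was listed at 10.2 and 9.20 FPKM with DMSO and at 18.3 and 17.1 FPKM with SB431542 (log2 difference 0.81, limma adjusted p 0.218), ahead of MGST1 (0.53) and GSTP1 (0.34). POR, the electron donor of microsomal P450, had a difference of 0.35 (limma adjusted p 0.756).

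The neighborhood of CYP1A1 was then inspected, since a change over a whole region would include the genes around it. Within 250 kb of the gene, 22 rows beside CYP1A1 and CYP1A2 were listed, of which 12 were tested and 0 passed the adjustment. Their log2 differences ranged from -0.23 to 0.78 with a median of 0.41, against 0.04 over all tested genes, and in 7 of the 12 both SB libraries were above both DMSO libraries (21.5% of all genes). Those 7 were EDC3, whose start is 29.3 kb to the side of lower positions, at 0.27, and, on the side of CYP1A2, CSK at 0.41, ULK3 at 0.61, SCAMP2 at 0.41, MPI at 0.40, RPP25 at 0.78 and SCAMP5 at 0.53, while COX5A (0.42) and FAM219B (0.01) had overlapping groups. Beyond EDC3 lay CLK3 (-0.11) and UBL7-AS1 (0.03), with overlapping groups, and ARID3B (-0.23), with both SB libraries lower. SCAMP5, a secretory membrane protein, was listed at 32.7 and 32.1 FPKM with DMSO and at 47.6 and 46.7 FPKM with SB431542 (limma adjusted p 0.366), and RPP25, a subunit of ribonuclease P, at 9.20 and 6.75 against 16.6 and 12.3 FPKM (limma adjusted p 0.390).

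**Figure D4:**
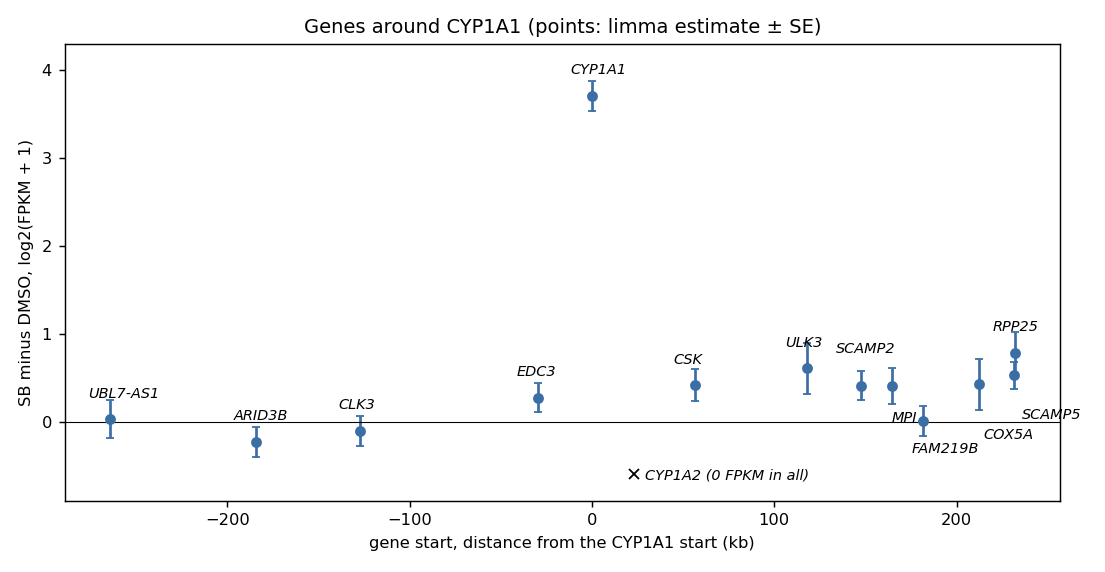
Difference between SB and DMSO libraries on the log2(FPKM + 1) scale (vertical axis, points with SE bars) for tested genes by the distance of their start from the CYP1A1 start in kb (horizontal axis, increasing with chromosome position). CYP1A1 stands at 3.71, the tested neighbors lie between -0.23 and 0.78, and the cross marks the place of CYP1A2, listed at 0, its height carrying no value.

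Genes whose profile was most like that of CYP1A1 were found by the Euclidean distance between centered log2(FPKM + 1) profiles over the 4 libraries, among 10285 tested genes that were above 0 in each library and averaged 5 FPKM or more in one of the groups. The nearest were IFI6 (distance 0.790), PPBP (0.963), PF4 (1.20), KCNA5 (1.39) and MX1 (1.43). IFI6, an interferon-stimulated gene, was listed at 13.5 and 15.7 FPKM with DMSO and at 111 and 124 FPKM with SB431542. PPBP and PF4 encode platelet chemokines, KCNA5 a potassium channel and MX1 an interferon-induced antiviral GTPase. PF4 was listed at 32.6 and 49.7 FPKM with DMSO and at 199 and 322 FPKM with SB431542, and KCNA5 at 0.555 and 0.339 against 7.96 and 5.57 FPKM. Their log2 differences ran from 2.28 for MX1 to 2.92 for IFI6, each smaller than that of CYP1A1, and 0 of the 5 came from the lists above. With 4 libraries in 2 groups, any gene with a large and even increase has a like profile.

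**Figure D5:**
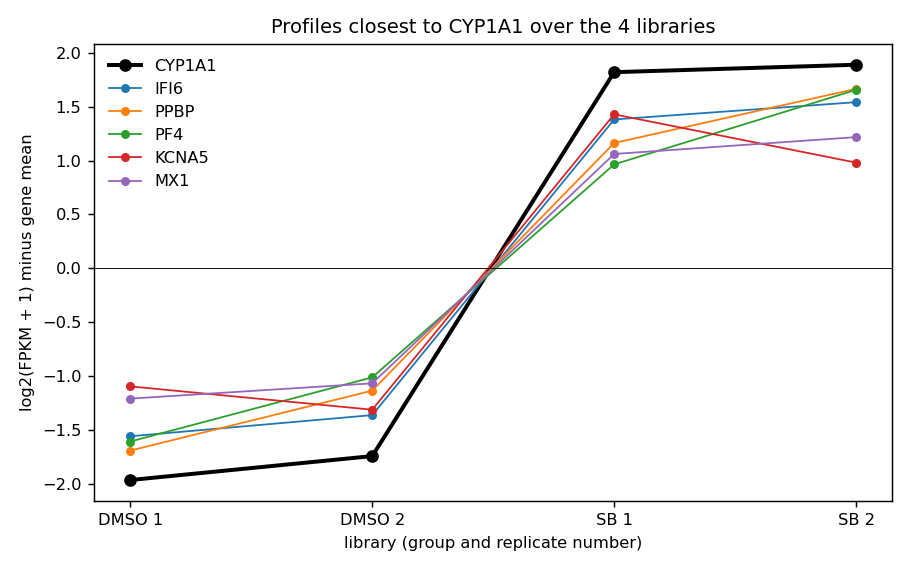
Profiles of CYP1A1 (black) and the 5 nearest genes over the 4 libraries (horizontal axis), as log2(FPKM + 1) minus the mean of the gene (vertical axis). Each gene is below its mean in both DMSO libraries and above it in both SB libraries, and CYP1A1 spans the widest range.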

How the data were processed

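The authors deposited FPKM values in 1 table of 58365 rows with a column for each of the 4 libraries, and the study states that a company did the RNA-seq analysis. The submitters' processing notes name BWA, Bowtie, RSEM and hg19, without roles or versions. Of the gene identifiers, 95.5% occur with the same version in GENCODE release 29 and 99.8% of their rows have its GRCh38 positions, so coordinates are given on GRCh38, counted from 1. Groups and replicate numbers came from the sample titles. The members, lists and tests were chosen with earlier results of these data known.

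The log2(FPKM + 1) of genes averaging 1 FPKM or more in either group was compared between groups with limma 3.58.1 (R 4.3.3, empirical Bayes with a trend, group as the only term, two-sided p adjusted by the Benjamini-Hochberg method over all genes tested, threshold 0.05). The script was tested on simulated data. An exact permutation test of 2 against 2 libraries cannot reach the threshold and was not used. Lists are described by counts and medians, and genes in several lists were counted once in the total. Named genes are all 8 members, the 5 most like CYP1A1, up to 3 tested genes per pathway list by unadjusted p and the tested neighbors of CYP1A1. Up to 3 markers per cell type by mean FPKM could also be named. No marker was named by this rule for the mesenchymal and cardiac list or the epithelial list. ALDH3A1, UGT1A1, UGT1A6, IDO1, TDO2, GCLC, NFE2L2, POR, ALB, PTPRC, NANOG, ENG, AFP, ACTC1, PDCD6, RMDN2, CYP1B1-AS1, TIPARP-AS1, HIF1A, ARNT2 and NR1I2 were named after their values were seen. The same holds for NR1I3, KEAP1, TDGF1, IL4I1, AC019117.3, AC003075.1 and AC092115.2. Promoter sequences are RefSeq's (GRCh38.p14).

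FPKM hide the number of fragments. From the most common ratio between libraries over single-exon genes, the relative depth was estimated at 75.5% to 100% of the deepest library, and the absolute depth, and so the counting error, is unknown. Alternatives were a replicate block, other filters, another pseudocount, other scalings and the removal of each library. Values of 1 listed gene are not reported here.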

Additional observations from a re-analysis of the deposited data

How the results depend on the processing

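CYP1A1 had a log2 difference of 3.99 with a pseudocount of 0.1, and 3.60 to 3.82 with 1 library left out. The count of genes past the adjustment was 20. It was 1564 with the replicate block, 0 without a filter on low values (with 2739 at an unadjusted p under 0.05), 31 after quantile normalization and between 0 and 16 with 1 library left out, being 0 without DMSO replicate 1 (1101 at an unadjusted p under 0.05), 14 without DMSO replicate 2, 7 without SB replicate 1 and 16 without SB replicate 2, of which 4, 2 and 3 in the last 3 were among the 20. Rows at 0 in all libraries were left out of the unfiltered fit. Where 1 library is left out, the lone library of its group is assumed to vary like the other group. The labels do not say that a replicate number marks a shared culture. Across genes, the difference between numbers 1 and 2 correlated between the groups (Pearson's r 0.53). With the replicate block NQO1 passed (limma adjusted p 0.00775), the other 5 tested members still did not, and 18 of the 104 pathway genes passed (17.3%, against 10.5% of all genes with the block), where 0 passed without it.

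With 1 library left out, AHR ranged from -0.19 to 0.53 and AHRR from -0.036 to 0.40, whereas NQO1 ranged from 0.89 to 0.94 and ARNT from -0.40 to -0.27. CYP1B1 ranged from -0.57 (without SB replicate 1) to -0.055 (without SB replicate 2), and was -0.68 with a pseudocount of 0.1. TIPARP ranged from 0.044 (without DMSO replicate 1) to 0.23 (without DMSO replicate 2). List medians changed sign for the bHLH-PAS and PER genes (-0.24 to 0.074) and the xenobiotic receptor list (-0.27 to 0.21) with 1 library left out. The median of the other P450 genes changed sign under the stricter filter (0.15). Medians closer to 0 also changed sign without DMSO replicate 1, to -0.016 for coregulators, -0.073 for the PARP family and 0.033 for the other P450 genes, and the xenobiotic receptors had 0.040 under the stricter filter. The ligand supply median was -0.33 without DMSO replicate 2, that of the other AHR targets 0.31 without DMSO replicate 1 and 0.0015 without the filter, that of the NRF2 battery 0.20 without DMSO replicate 1, that of the chaperones 0.10 without DMSO replicate 2 and 0.11 without SB replicate 1, and that of the P450 partners 0.23 without SB replicate 2. The median around CYP1A1 was 0.028 without the filter. Of the 5 genes most like CYP1A1, 4 were kept with a pseudocount of 0.1. The cause of these shifts was not tested. Without counts, the depth limits what can be said of genes near 1 FPKM such as CYP1B1, AHRR and TIPARP.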

Other observations

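The relatives of AHR and ARNT in the bHLH-PAS family belong to a group of factors that sense oxygen, time of day and small molecules. They were listed together with the PER clock genes, which lack the bHLH part. The median log2 difference of the list was 0.02 over 11 tested genes, with 0 past the adjustment. EPAS1, the hypoxia-inducible factor typical of endothelium, was listed at 37.9 and 27.8 FPKM with DMSO and at 21.6 and 18.7 FPKM with SB431542, lower in both SB libraries (log2 difference -0.67, limma adjusted p 0.424). HIF1A, named after its values were seen, was at 49.6 and 75.3 FPKM with DMSO and at 55.7 and 74.0 FPKM with SB431542, with overlapping groups. The clock genes PER3 (-0.45) and ARNTL (0.38) had limma adjusted p of 0.617 and 0.660. ARNT2, which can stand in for ARNT, did not exceed 0.430 FPKM.

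The PARP family, to which TIPARP belongs, had a median of 0.11 over 15 tested genes. PARP9, which is induced by interferon, was listed at 1.14 and 1.17 FPKM with DMSO and at 3.56 and 3.95 FPKM with SB431542 (log2 difference 1.14, limma adjusted p 0.165), and PARP12, also induced by interferon, at 1.43 and 1.78 against 3.17 and 4.53 FPKM (0.88, limma adjusted p 0.318). PARP3 had a difference of -0.40 with overlapping groups. The list of other xenobiotic receptors, which also holds related nuclear receptors, had a median of -0.14 over 6 tested genes. Its xenobiotic sensors NR1I2 and NR1I3 were not among those tested. NR1I2, the pregnane X receptor, did not exceed 0.127 FPKM, and HNF4A, a liver regulator, stood at 1.52 and 0.673 FPKM with DMSO and at 0.172 and 0.0516 FPKM with SB431542 (limma adjusted p 0.449). RXRB (-0.35) and NR1H3 (0.23) had limma adjusted p of 0.663 and 0.871.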
